A study of Mus musculus with 6 samples.

Results

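Cav2, Cav1, Met, St7, Wnt2 and Cftr are neighbours on mouse chromosome 6, and their RNA was followed through 6 libraries of tailbud tissue. The 6 genes were chosen by position, as the stretch from Cav2 to Cftr, out of 56953 features in the count table. The stretch was proposed with the contrast of mutant and wild type already known, so the values from that contrast are given as a description and support nothing further. The annotation places 8 protein-coding genes from Cav2 to Cftr, and the other 2, Capza2 and Asz1, are described beside the 6.

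The tissue was microdissected at embryonic day 9.5 from the posterior end of the embryo, and is labelled as holding neuromesodermal progenitors with somitic and intermediate mesoderm. One group of 3 libraries came from wild-type embryos, and the other 3 from Fgfr1 FCPG/FCPG embryos, homozygous for point mutations at residues through which the receptor binds its effectors. The study asks how gene expression in forming mesoderm depends on that signaling. Strain, litter and the number of embryos per library are not stated in the labels, and nothing says that the libraries came from separate litters, so p-values measure only the spread between these libraries. Library totals ran from 16984568 to 27316475 counts. RNA from Y-linked genes was present in wild-type replicate 1 and mutant replicates 2 and 3 and near 0 in the other 3. Read as embryo sex, this split was uneven over the groups, and the embryo sex term below rests on it. The names of those Y-linked genes were not checked as the names around the locus were. In bulk tissue, fewer cells of a type and less RNA per cell cannot be told apart.

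Caveolin 1 and caveolin 2, the products of Cav1 and Cav2, form flask-shaped pits of the plasma membrane called caveolae, which are common in endothelium, fat and mesenchyme, and caveolin 2 depends on caveolin 1 to reach the cell surface. Met is the receptor tyrosine kinase for hepatocyte growth factor and guides epithelia and migrating muscle precursors. Wnt2 is a secreted Wnt ligand known from the allantois, placenta and lung mesoderm. Cftr is the chloride channel of epithelia that is defective in cystic fibrosis. St7 was described as a candidate suppressor of tumor growth, Capza2 is a subunit of the protein that caps actin filaments, and Asz1 acts in germ cells.

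Names in the count table can be trusted only over part of the genome. Of 787 genes from families that nearly all cells express, 235 reached a mean of 10 CPM (counts scaled to the library size, CPM below). Around the locus the listed names matched their expected levels. The lists and the rule for reading names were chosen with these data known, so this is not an independent check. All 13 genes listed as ubiquitous on this part of chromosome 6 reached 10 CPM, with means from 113.7 to 619.1 CPM. Of 12 genes listed as silent outside a few adult tissues, 11 had a mean below 1 CPM, and that of Tac1 was 1.499 CPM. Of these 12, only 8 lie where names are treated as readable. Low levels were also common, since 14550 of 56953 features passed the low-count filter, so this list is a weak check. For each of the 6 genes, the 10 nearest genes of those families were all at 10 CPM or above. Fgfr1 lies where names cannot be read, so the genotype labels were not checked by it, and 0 of 9 tailbud mesoderm markers could be read to check the tissue label.

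The starts of 3 genes are shown because they carry the patterns reported below. The RefSeq table (build GRCm38.p6, while the submitters name mm39) held 11 windows of 300 bases, from 250 before to 50 after a start, for the 8 genes. Capitals mark matches on either strand to 6 motifs chosen after the sequences were seen: the GC box GGGCGG, the TATA box TATAAA, the CCAAT box by those letters, the E-box CACGTG, the ETS core CCGGAA and the AP-1 site TGANTCA, and the overlapping GC boxes of Cav2 form 1 run. Cav2 lies at chr6:17280935-17281234 on the plus strand, the upstream of the pair of Cav1 windows at chr6:17306085-17306384 on the plus strand, and Wnt2 at chr6:18030396-18030695 on the minus strand.
Cav2: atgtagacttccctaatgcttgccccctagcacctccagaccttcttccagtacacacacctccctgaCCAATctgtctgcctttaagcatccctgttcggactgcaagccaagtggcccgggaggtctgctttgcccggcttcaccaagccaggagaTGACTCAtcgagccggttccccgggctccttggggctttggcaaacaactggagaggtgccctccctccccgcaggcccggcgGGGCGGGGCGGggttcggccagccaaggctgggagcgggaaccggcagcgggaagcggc
Cav1: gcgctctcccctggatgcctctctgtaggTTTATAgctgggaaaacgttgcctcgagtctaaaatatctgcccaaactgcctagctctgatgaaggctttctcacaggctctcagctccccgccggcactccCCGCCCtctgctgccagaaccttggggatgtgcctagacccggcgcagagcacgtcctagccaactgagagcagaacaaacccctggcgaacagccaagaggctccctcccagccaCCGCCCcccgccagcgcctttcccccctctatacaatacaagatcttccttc
Wnt2: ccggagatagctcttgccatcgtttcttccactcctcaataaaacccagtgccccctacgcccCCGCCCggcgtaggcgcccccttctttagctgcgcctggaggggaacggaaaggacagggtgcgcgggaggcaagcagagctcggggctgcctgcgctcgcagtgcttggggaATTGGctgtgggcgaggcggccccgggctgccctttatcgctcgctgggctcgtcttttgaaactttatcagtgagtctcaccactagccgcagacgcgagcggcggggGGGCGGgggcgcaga
Each of the 3 windows held 2 GC boxes, a motif found at least 1 time in 35.7% of all 32851 windows of the table. Among the other genes of the locus Cftr held 6, Met 3, Capza2 and Asz1 1 each, and the windows of St7 0. The Cav1 window shown held 1 TATAAA match, a motif found at least 1 time in 13.6% of all windows. It lies near the upstream end of the window and reads TATAAA on the other strand. Among the other genes of the locus only St7 also held this motif. The other Cav1 window, not shown, held 0 matches to the 6 motifs. Cav2 and Wnt2 held 1 CCAAT match each (37.4% of all windows), and among the other genes of the locus only Cftr also held this motif. Cav2 held 1 TGANTCA match, which occurs in 7.81% of all windows, and among the other genes of the locus Met alone also held one. None of the 3 held the E-box (7.15% of all windows) or the ETS core (14.9%). These matches are letters in a window, not bound sites.

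Cav1 was higher in every mutant library than in every wild-type library, and its level differed widely among the mutants. Wild-type replicates 1 to 3 held 14.1, 9.02 and 7.97 CPM, and mutant replicates 1 to 3 held 60.0, 185.2 and 19.8 CPM. The groups did not overlap, mutant replicate 2 was far above the other libraries, and mutant replicate 3 lay closest to wild type. The highest mutant library was 9.35-fold above the lowest, against 1.77-fold in wild type. The spread of Cav1 among mutants, an SD of 1.61 in log2 CPM, was larger than that of 99.4% of the 14550 tested features. The fit over all features (edgeR quasi-likelihood test) put its log2 fold change at 3.08 ± 0.71 (SE, adjusted p = 0.0371). That call ended when mutant replicate 1 or any 1 wild-type library was left out (log2 fold change from 2.94 to 3.38, adjusted p from 0.0668 to 0.159 by edgeR). It also ended with limma-voom, at a log2 fold change of 2.49 (adjusted p = 0.111), and with a term for embryo sex, at 2.84 (adjusted p = 0.0814 by edgeR). Without mutant replicate 2 the log2 fold change was 1.95, with an adjusted p of 0.0476 by edgeR. Among libraries with Y-linked RNA, mutant replicates 2 and 3 stood 13.1-fold and 1.41-fold above the 1 wild-type library. Among those without it, the 1 mutant library stood 7.07-fold above the mean of the 2 wild-type libraries.

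Cav2, which lies next to Cav1 on the same strand, did not pass the test. The wild-type libraries held 6.74, 7.99 and 6.42 CPM and the mutant libraries 7.65, 15.6 and 7.12 CPM. Only mutant replicate 2 left the wild-type range, and the groups overlapped. The log2 fold change was 0.51 ± 0.30 (SE, adjusted p = 0.328 by edgeR), and it was 0.08 without mutant replicate 2. The ratio of Cav1 to Cav2 per kilobase of exon therefore differed between libraries, at 2.02, 1.09 and 1.20 in wild-type replicates 1 to 3 and 7.60, 11.5 and 2.69 in mutant replicates 1 to 3. All mutant ratios were above all wild-type ratios. The antisense feature Gm15581, which spans both caveolin genes in the annotation, held 2 counts in all, so few reads were assigned to it, although whether the counting used strand is not stated in the labels.

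**Figure D1:**
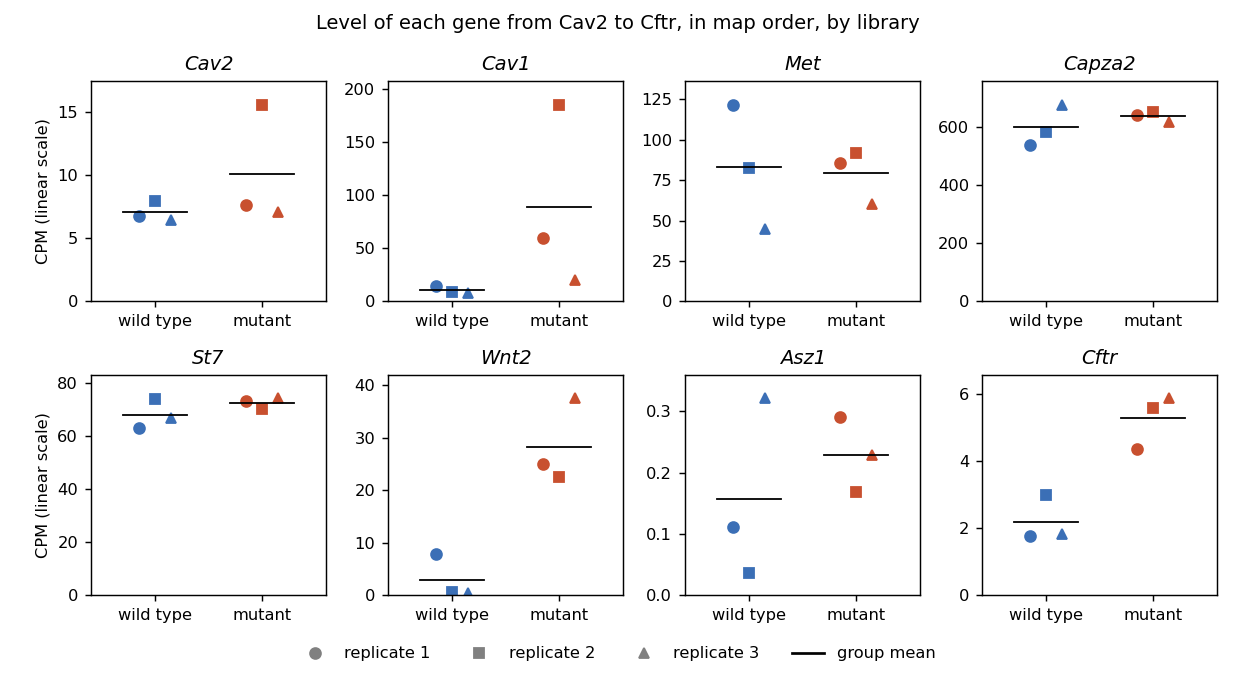
CPM on a linear scale, starting at 0 and scaled for each gene, for the 8 protein-coding genes from Cav2 to Cftr; symbols are replicates 1 to 3, bars are group means of 3 libraries. Cav1 and Cav2 peak in mutant replicate 2, Wnt2 in mutant replicate 3, and Capza2 and St7 stay near one level.

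Met, the growth factor receptor between the caveolin genes and Capza2, did not differ between the groups beyond its spread. Its wild-type replicates 1 to 3 held 121.8, 82.8 and 44.9 CPM and its mutant replicates 1 to 3 held 85.9, 92.1 and 60.0 CPM. The wild-type libraries spanned a 2.71-fold range that held all 3 mutant values. The SD of 0.72 in log2 CPM among wild-type libraries was larger than that of 94.6% of tested features. The log2 fold change was -0.07 ± 0.32 (SE, adjusted p = 0.918 by edgeR), and its sign turned without wild-type replicate 1, where it was 0.32, without mutant replicate 3, where it was 0.11, and with a replicate block.

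Capza2 and St7, which lie between Met and Wnt2, were the steadiest genes of the locus among the mutants. Capza2 had 539.8, 584.1 and 677.9 CPM in its wild-type libraries, against 642.4, 652.5 and 617.8 CPM in its mutants. For St7 the wild-type values were 63.0, 73.7 and 66.7 CPM and the mutant values 73.0, 69.9 and 74.0 CPM. The groups overlapped for both genes. Their log2 fold changes were 0.09 ± 0.09 each (SE, adjusted p = 0.608 for Capza2 and 0.573 for St7 by edgeR). Among the mutants only 3.58% of tested features had a smaller SD in log2 CPM than Capza2, and 4.06% a smaller one than St7.

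Wnt2 was higher in every mutant library than in every wild-type library. Its counts were 209, 14 and 8 in wild-type replicates 1 to 3 and 600, 400 and 985 in mutant replicates 1 to 3, which correspond to 7.79, 0.52 and 0.43 CPM and to 24.9, 22.5 and 37.5 CPM. Here mutant replicate 3, the lowest for Cav1, was the highest, and wild-type replicate 1 stood 18.2-fold above wild-type replicate 3. The SD among wild-type libraries, 2.21 in log2 CPM, was larger than that of 99.9% of tested features, while among the mutants it was 0.39. The log2 fold change was 3.24 ± 0.87 (SE) and missed the threshold (adjusted p = 0.0584 by edgeR). It was 5.88, with an adjusted p of 0.00112 by edgeR, without wild-type replicate 1. Wnt2 also passed with limma-voom, with a term for embryo sex, with a replicate block and without the low-count filter. The replicate numbers gave no sign of pairing, and without the filter the SE shrank to 0.19, far below the wild-type spread. Those last 2 calls are therefore not relied on. It missed the threshold with DESeq2 size factors, the DESeq2 Wald test and a filter of 5 CPM in 3 libraries (adjusted p from 0.0577 to 0.0644 by edgeR or DESeq2). Wild-type replicate 1 is the one wild-type library with Y-linked RNA. Among libraries with Y-linked RNA, Wnt2 was 3.85-fold higher in the mutants (1 wild-type and 2 mutant libraries), and among those without it was 52.9-fold higher (2 wild-type and 1 mutant), too few in either class for a test.

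Asz1, the germ-cell gene next to Wnt2, had 1 to 7 counts per library and did not enter the test. Cftr was low throughout. Its counts were 47, 81 and 34 in wild-type replicates 1 to 3 and 105, 99 and 154 in mutant replicates 1 to 3, which correspond to 1.75, 2.98 and 1.82 CPM and to 4.36, 5.57 and 5.86 CPM. All mutant values lay above all wild-type values, and mutant replicate 2 did not stand out. The log2 fold change was 1.26 ± 0.27 (SE, adjusted p = 0.0301 by edgeR). The call ended without any 1 library other than mutant replicate 3 (adjusted p from 0.0507 to 0.107 by edgeR) and with a term for embryo sex (adjusted p = 0.0750 by edgeR), while the log2 fold change stayed between 1.13 and 1.56. Cftr was 3.27-fold higher in the mutants among libraries with Y-linked RNA (1 wild-type and 2 mutant) and 1.82-fold higher among those without (2 wild-type and 1 mutant). Under a filter of 5 CPM in 3 libraries Cftr was not tested.

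Of the 6 genes, all passed the low-count filter, 2 (Cav1 and Cftr) were called higher and 0 lower. Over all 14550 tested features 4.25% were called higher and 3.67% lower. The groups did not overlap, with the mutants higher, for 3 of the 6 genes, against 15.8% of tested features. The median log2 fold change of the 6 genes was 0.89, beside -0.01 over all tested features. In the authors' deposited table Cav1 had a log2 fold change of 3.10 (adjusted p = 0.00467), Cftr 1.27 (adjusted p = 0.000996) and Wnt2 3.29 (adjusted p = 0.0576), and Cav2, Met, Capza2 and St7 had adjusted p-values from 0.285 to 0.958.

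The neighbours were not all high in the same mutant libraries along the locus. Cav2, Cav1, Met and Capza2 had their highest mutant value in replicate 2, then replicate 1, then replicate 3. This order was held by 4 of the 7 tested genes of the locus, beside 22.4% of tested features. The margin was large for the caveolin genes and small for Met and Capza2. In log2 CPM, mutant replicate 2 lay 1.61 above the mutant mean for Cav1 and 0.71 above it for Cav2, but 0.24 above for Met and 0.29 below for Wnt2. Mutant replicate 3 lay 1.61 below the mean for Cav1 and 0.44 above it for Wnt2. Among wild-type libraries Cav1, Met and Wnt2 were all highest in replicate 1 and lowest in replicate 3, as were 21.1% of tested features, whereas Cav2 and Cftr were highest in replicate 2. With the group means removed, Pearson correlations over 6 libraries were computed for 21 pairs of genes and ran from -0.80 for Capza2 with Wnt2 to 0.84 for Cav1 with Cav2. That of Cav1 with Cav2 rests on mutant replicate 2, since it was 0.22 without that library. Other high values were 0.76 for St7 with Cftr and 0.67 for Met with Wnt2, and Met with Capza2 stood at -0.79. That of Met with Wnt2 was -0.35 without wild-type replicate 1. Cav1 had 0.58 with Met and 0.09 with Wnt2, and the latter was -0.89 without wild-type replicate 1. These libraries share their depth and their dissection across all genes, and the correlations are descriptions only.

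**Figure D2:**
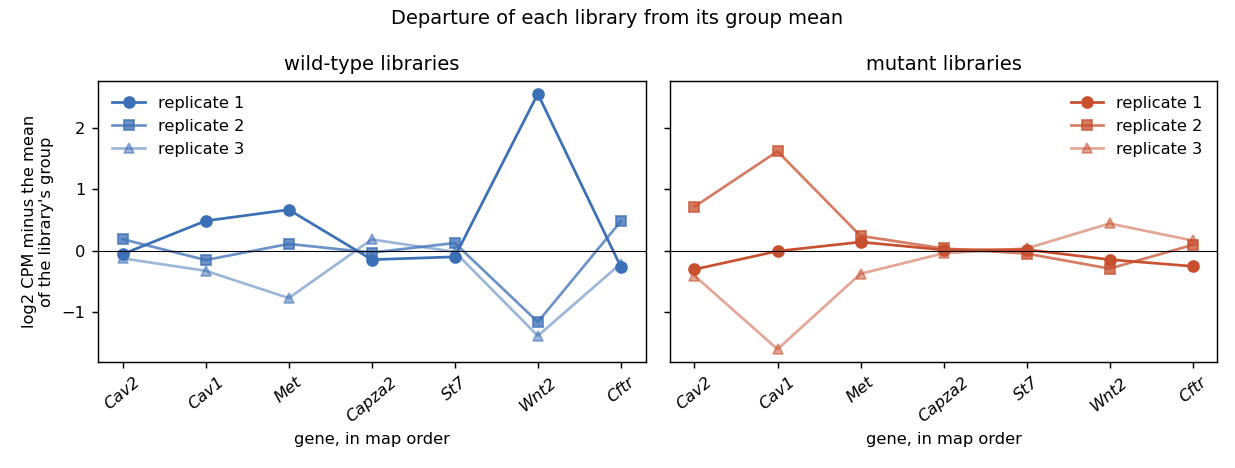
Log2 CPM of each library minus the mean of its group, for the 7 tested genes in map order; lines join the genes of 1 library. Mutant replicate 2 rises above 0 at Cav2 and Cav1 and returns to it by Capza2, while wild-type replicate 1 stands 2.55 above its group at Wnt2.

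Per kilobase of annotated exon the order of the genes differed between the groups. In wild type it ran Capza2 at 102 ± 12 CPM per kilobase, Met at 10.8 ± 5.0, St7 at 7.50 ± 0.60, Cav1 at 3.01 ± 0.95, Cav2 at 2.11 ± 0.25, Wnt2 at 1.29 ± 1.87, Cftr at 0.281 ± 0.089 and Asz1 at 0.055 ± 0.052 (SD, n = 3). Judged by whether all 3 libraries of one gene lay above all 3 of the next, the neighbours that were not set apart were Met and St7, Cav1 and Cav2, Cav2 and Wnt2, and Wnt2 and Cftr. Within each wild-type library Cav1 was nonetheless above Cav2. In the mutant Capza2 stood at 108 ± 3.0 CPM per kilobase, followed by Cav1 at 25.6 ± 25.0, Wnt2 at 12.6 ± 3.6, Met at 10.3 ± 2.2, St7 at 7.998 ± 0.240, Cav2 at 3.04 ± 1.42, Cftr at 0.678 ± 0.102 and Asz1 at 0.081 ± 0.022 (SD, n = 3). By the same criterion the neighbours not set apart there were Cav1 and Wnt2, Wnt2 and Met, and Met and St7. Cav1 also overlapped Met and St7, through mutant replicate 3, and lay above Cav2 in all 3 libraries.

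The genes on either side of the locus were measured for comparison. Tes, a focal adhesion protein encoded just before Cav2, had 153.1, 144.6 and 150.2 CPM in its wild-type and 209.7, 220.6 and 161.2 CPM in its mutant libraries, with a log2 fold change of 0.40 (adjusted p = 0.0789 by edgeR). Its mutant libraries followed the same order as those of Cav1, and the groups did not overlap. Cttnbp2, a cortactin-binding protein of neurons encoded just after Cftr, had 19.97, 31.4 and 18.9 CPM in its wild-type and 26.7, 51.3 and 47.7 CPM in its mutant libraries, with a log2 fold change of 0.84 (adjusted p = 0.101 by edgeR). Farther out, Foxp2, a forkhead transcription factor, ran from 16.1 to 24.1 CPM over the wild-type libraries, while mutant replicates 1 to 3 held 41.4, 82.7 and 12.1 CPM. Its mutant replicate 2 was the highest and its mutant replicate 3 the lowest of all 6 libraries. Cped1 likewise stood at 41.4, 50.2 and 5.48 CPM in the mutants and from 22.2 to 30.4 CPM in wild type. Of the 13 flanking genes listed, 11 were tested and 1, Tspan12, was called, with means of 103.1 ± 4.5 CPM for wild type and 148.6 ± 24.0 CPM for the mutant (SD, n = 3, adjusted p = 0.0401 by edgeR). From Bet1 to Wasl, 12 of 56 tested protein-coding genes of chromosome 6 were called higher and 6 lower, beside 4.25% and 3.67% of all tested features. The mutant order of Cav1 was shared by 16 of the 56, beside 22.4% of all tested features.

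**Figure D3:**
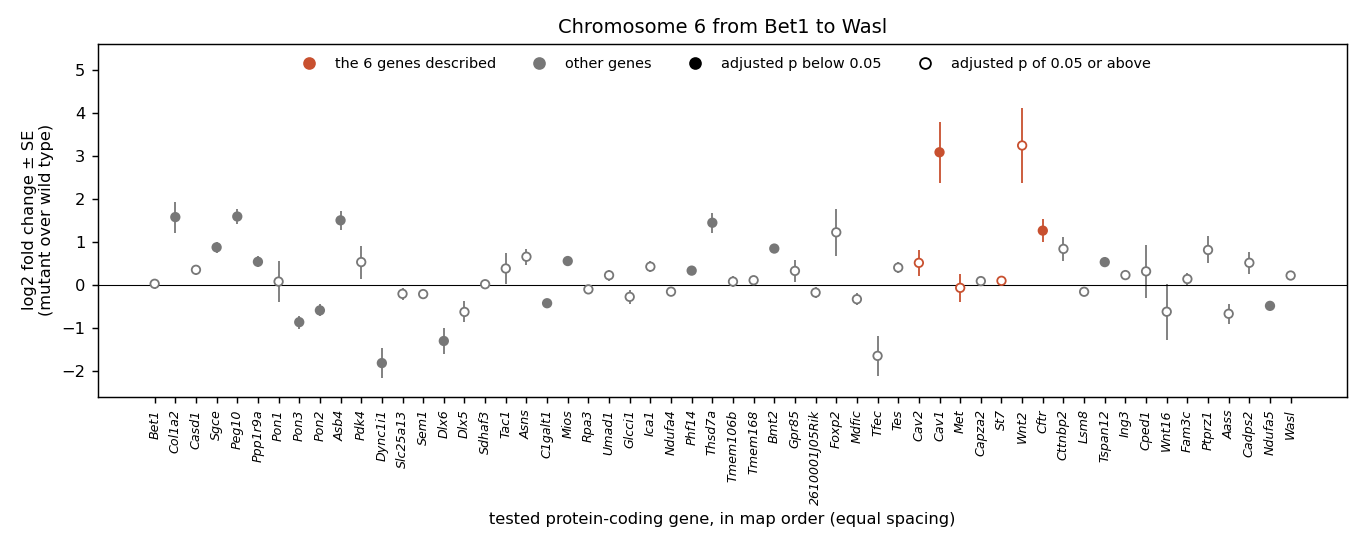
Log2 fold change, mutant over wild type, with its SE for the 56 tested protein-coding genes of chromosome 6 from Bet1 to Wasl, equally spaced in map order. Filled points have an adjusted p below 0.05; Cav1 at 3.08 and Wnt2 at 3.24 lie above every other gene shown, and Met, Capza2 and St7 between them lie near 0.

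Over the 6 libraries, the genes of this stretch whose log2 CPM followed Cav1 most closely were Asns (r = 0.98), Tes (0.97), Wasl (0.95), Mios (0.92) and Thsd7a (0.91), out of 55 compared. Asns, which makes asparagine, stood at 389.2, 461.5 and 261.2 CPM in the mutants and from 214.2 to 264.2 CPM in wild type, so its mutant replicate 3 lay within the wild-type range. Those most like Wnt2 were Peg10 (r = 0.95), Asb4 (0.90), Ppp1r9a (0.88), Mios (0.88) and Sgce (0.87). Peg10, an imprinted gene of retrotransposon origin, had wild-type values of 1989, 1467 and 1155 CPM and mutant values of 4549, 4859 and 4458 CPM, with wild-type replicate 1 nearest to the mutants as it was for Wnt2. These values of r include the step between the groups, and Mios is on both lists.

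Few partners of the 6 genes could be read. Of 11 listed caveola genes, 3 could be read, namely Cav1, Cav2 and Cavin4, a muscle cavin, which averaged 9.87 ± 1.09 CPM over the wild-type and 8.76 ± 2.13 CPM over the mutant libraries (SD, n = 3, adjusted p = 0.635 by edgeR). Of the 3, 1 was called higher, Cav1 itself, and 0 lower, beside 4.25% and 3.67% of all tested features. Of 12 genes of the pathway of Met, the receptor itself was the only one, and it was not called. Of 34 Wnt ligands and receptors, 3 could be read. Of these, 1 was called higher and 0 lower, beside the same shares of all tested features. The gene called was Tspan12, a tetraspanin that aids Frizzled signaling. The ligand Wnt16, not called, had 29.5, 17.1 and 3.10 CPM over wild-type replicates 1 to 3, against 5.53, 12.9 and 14.0 CPM over mutant replicates 1 to 3 (adjusted p = 0.596 by edgeR). Its order among the wild-type libraries was that of Met and Wnt2.

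Of 4 readable markers of other cell types, other than Wnt2, 3 were called between the groups and Tmod1 was not. The adjusted p by edgeR was 0.0364 for Col1a2, 0.0411 for Pou3f2 and 0.00627 for Hemgn. Of all tested features, 4.25% were called higher and 3.67% lower. Col1a2, 1 of 5 listed mesenchyme markers and the only one readable, had wild-type values of 167.1, 211.5 and 219.4 CPM and mutant values of 282.7, 924.4 and 574.3 CPM. Pou3f2, 1 of 7 neural tube markers and the only one readable, had wild-type values of 11.7, 7.21 and 4.23 CPM and mutant values of 49.8, 305.6 and 20.8 CPM. In both, as in Cav1, mutant replicate 2 was the highest library. That replicate was the highest of the mutants for 5545 of 14550 tested features. Of 11 erythroid markers 2 could be read: Hemgn had wild-type values of 103.3, 68.2 and 62.8 CPM and mutant values of 22.4, 15.9 and 10.7 CPM, while Tmod1 averaged 10.52 ± 5.52 and 6.09 ± 2.16 CPM (SD, n = 3). Of 10 endothelial and 9 gut epithelial markers 0 could be read, and of 7 allantois markers only Wnt2 itself, so the share of those cells in each library is not known here. The part of these cell types in the levels of Cav1, Cav2, Wnt2 and Cftr was not tested.

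**Figure D4:**
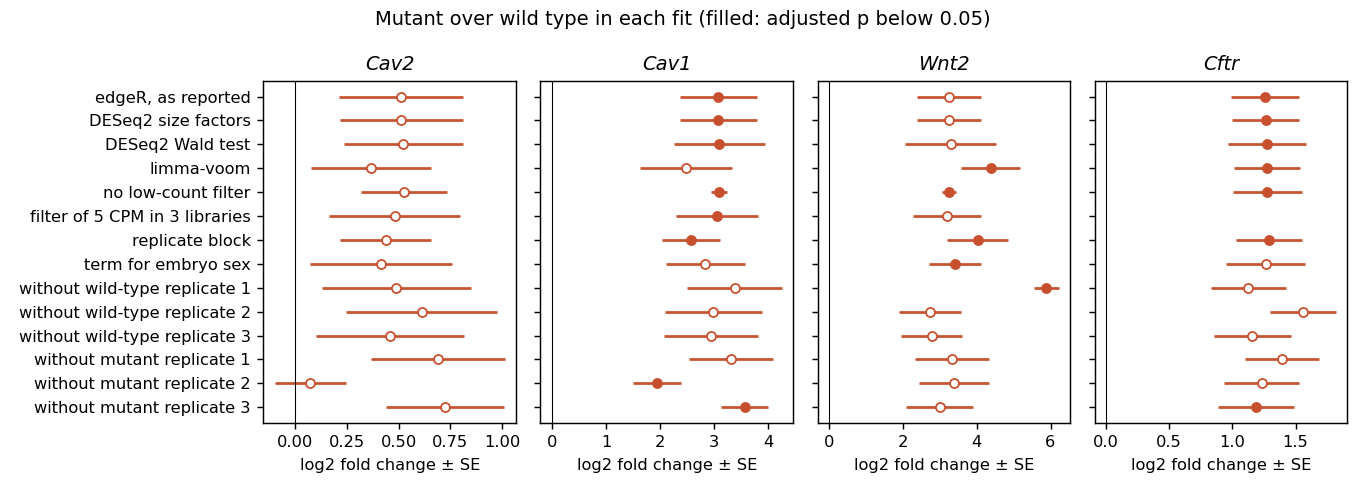
Log2 fold change, mutant over wild type, with its SE in each fit for Cav2, Cav1, Wnt2 and Cftr; each panel has its own horizontal scale, and filled points have an adjusted p below 0.05. Cav1 moves to 1.95 without mutant replicate 2 and Wnt2 to 5.88 without wild-type replicate 1, and no value falls below 0.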

How the data were processed

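Polyadenylated tailbud RNA of 3 wild-type and 3 Fgfr1 FCPG/FCPG libraries was sequenced after stranded library preparation, per the labels' protocols. Of tools, the submitters' processing notes list featureCounts, Bowtie, DESeq and DESeq2, and as build mm39. The annotation and strand setting are not given in the sources used here. For each Ensembl gene the table deposited by the authors holds a raw count. They also deposited a DESeq2 table whose log2 fold change and adjusted p-value columns, per the file headers, were used only where named. IDs were cut to 18 characters, which left 0 duplicates, and 52029 of 56953 matched a symbol. Gene order and exon length came from GENCODE M21, which describes another build, so coordinates are given only for the RefSeq windows, in the build of that table.

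A name was treated as readable within chromosome 6 from Bet1 to Wasl, where at least 9 of the 10 nearest genes of ubiquitous families reached 10 CPM, or elsewhere where all 10 did. This rule was chosen after seeing the data. The members and gene lists were chosen with earlier results of these data known. The groups were compared in edgeR 4.0.16 (R 4.3.3) by its quasi-likelihood F test (filterByExpr, TMM, 14550 features, Benjamini-Hochberg over all, threshold 0.05). CPM uses TMM-scaled library sizes, and log2 CPM a prior count of 2. SE is the log2 fold change over the root of F. Named were the members, the other genes between them, the flanking Tes and Cttnbp2, the 5 genes most like Cav1 and Wnt2, and readable list members. Foxp2, Cped1 and Gm15581 were named after their values were seen. Alternatives were DESeq2 size factors, DESeq2 1.42.0, limma-voom (limma 3.58.1), other filters, a replicate block, an embryo sex term, and each library left out.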

Additional observations from a re-analysis of the deposited data

How the results depend on the processing

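Cav1, Wnt2, Cftr, Cav2, Capza2 and St7 had positive log2 fold changes in all fits that tested them. Met turned to 0.021 with the replicate block, and ran from -0.36 to 0.32 with 1 library left out, positive without wild-type replicate 1 or mutant replicate 3 (0.11). Of the 6 genes 2 were called higher, against 1 with a filter of 5 CPM in 3 libraries, where Cftr was not tested, 1 with the embryo sex term, where that was Wnt2, 3 with no low-count filter and 3 with the replicate block, where Wnt2 was added, and 0 to 2 with 1 library left out. With limma-voom the 2 were Wnt2 and Cftr. Over all features 618 were higher and 534 lower. The counts were 941 higher and 767 lower with the DESeq2 Wald test, 1352 and 1145 with no low-count filter, 273 and 264 with the embryo sex term, and 66 to 783 and 63 to 565 with 1 library left out; the lowest came without wild-type replicate 2. Without the filter the SEs of Cav1 and Wnt2 shrank to 0.15 and 0.19, far below the spread between libraries. Their calls in that fit are not relied on. The cause of these changes was not tested, except that fits without a library hold fewer samples. Libraries with the same number gave no sign of pairing (correlations of their deviations -0.229, -0.0051 and -0.0075), and the replicate block gave 433 higher and 411 lower, with Wnt2 called (log2 fold change 4.02, adjusted p = 0.0355 by edgeR). The correlation of Cav1 with Cav2 ran from 0.22 to 0.89, and that of Cav1 with Wnt2 from -0.89 without wild-type replicate 1 to 0.35 without mutant replicate 2, each over 5 libraries. For the correlations only these libraries were left out in turn. Depth limits Asz1 and the wild-type level of Wnt2 in replicates 2 and 3, at 14 and 8 counts.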

Other observations

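Between Tes and Cttnbp2 the annotation also holds 16 features that do not encode proteins, of which 3 were tested and 5 had 0 counts in all libraries. The long noncoding RNA D830026I12Rik, which lies between Tes and Cav2 and was singled out after its values were seen, had 5, 6 and 2 counts in wild-type replicates 1 to 3 and 11, 31 and 7 in mutant replicates 1 to 3. It did not reach the low-count filter. Its mutant libraries had the order of those of Cav1.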
